A study of Homo sapiens with 2 samples.

Results

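The S100 calcium-binding protein genes were examined in the human liver cancer line PLC, in cells with an empty vector (EV) and in cells that overexpress PRSS35, a secreted protein of the serine protease family. The 10 genes, S100A14, S100A13, S100A16, S100A10, S100A11, S100A6, S100A4, S100A8, S100A9 and S100P, were selected on their FPKM values in these same 2 libraries, above all the difference in S100A14, and all 10 were found by name among the 26228 gene names that both libraries share. The labels give no treatment for either library and the genotype as WT for EV and PRSS35 over-expression for the other. Per the methods, stable cells were made with the lentiviral vector pCDH and puromycin selection, and whether they are clones is not given. EV cells carry the vector without an insert. Each condition has 1 RNA library, and no difference below has a replicate check or a p-value.

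S100 proteins are small proteins that carry a pair of EF-hand loops, of which the loop near the C-terminus usually binds calcium more tightly. Calcium binding exposes a surface through which they hold partner proteins such as annexins, myosin or ezrin, and several members are also released from cells and act on receptors such as RAGE. Most of the family lies in a cluster on the long arm of chromosome 1, and individual members are typical of certain cell types: S100A8 and S100A9 of neutrophils and monocytes, S100A14 and S100A16 of epithelia.

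Levels are given as FPKM, the fragments assigned to a gene per kilobase of transcript, scaled to a library size. How that size was set is not given in the sources used here. Division by length allows levels of different genes to be set side by side. The deposited lower and upper bounds follow in brackets as the interval, and cover counting and assignment error within a library only. The level of PRSS35 itself was 0.643 FPKM (0.445 to 0.841) in EV against 1836 FPKM (1759 to 1912) in PRSS35 cells, the direction that the labels give. Depth was compared by the FPKM that 1 fragment was worth, read from the intervals at 622 of 2452 loci considered. These had under 200 implied fragments, close to a whole number. The median ratio of EV over PRSS35 was 1.00, so no difference in depth was seen at these low loci. S100A10, S100A16, S100A13 and S100P exceed 200 implied fragments and are not covered. Added up per library, FPKM came to 2.47e+06 for EV but 1.51e+06 for PRSS35, a gap this measure does not address. All 8 listed hepatocyte and liver cancer markers were expressed, with a summed level of 3199 FPKM in EV and 4838 in PRSS35, of which SERPINA1 made up 2528 and 4239. The other 7 summed to 671.3 and 598.9 FPKM, and ALB was low at 4.05 and 5.21 FPKM. All 4 epithelial markers were expressed as well, with sums of 5284 and 4711 FPKM, led by the keratins KRT18 and KRT8. Of 4 fibroblast markers 1 was expressed, PDGFRB, and the sums were 1.75 and 2.03 FPKM. Differences are log2 ratios of PRSS35 over EV after adding 1 FPKM to both levels, which makes those of low genes smaller than their true fold, and a gene with a mean FPKM of at least 1 was called expressed.

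The members differ in the sequence of their calcium-binding loop. The following 7 sequences are the coding stretches of the C-terminal loop in the members expressed here, read from GRCh37, the assembly of hg19, at the GENCODE coding exons and aligned to S100A4. The stretch lies in exon 4 of S100A14, exon 2 of S100P and exon 3 of the others. Each has 12 codons and 36 bases, written 5′ to 3′ on the coding strand, with the codons at loop positions 1, 3, 5 and 12 in capitals, where a canonical loop holds side chains that coordinate calcium.
S100A14, chr1:153587427-153587462, minus strand: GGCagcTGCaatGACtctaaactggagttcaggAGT
S100A10, chr1:151955720-151955755, minus strand: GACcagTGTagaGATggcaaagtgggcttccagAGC
S100A16, chr1:153580088-153580123, minus strand: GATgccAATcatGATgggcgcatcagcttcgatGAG
S100A13, chr1:153591443-153591478, minus strand: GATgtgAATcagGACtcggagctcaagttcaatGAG
S100P, chr4:6698665-6698700, plus strand: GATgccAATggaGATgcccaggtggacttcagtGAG
S100A9, chr1:153333168-153333203, plus strand: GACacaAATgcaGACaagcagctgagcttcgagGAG
S100A4, chr1:153516319-153516354, minus strand: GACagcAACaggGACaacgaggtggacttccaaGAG
In 8 of the 10 members, all 4 capital codons encode aspartate, asparagine or glutamate, and the codon at position 12 is a glutamate codon throughout these 8. S100A10 keeps 2 such codons and has AGC, a serine codon, at position 12. S100A14 keeps 1 and has AGT, also serine, at position 12. These are the most abundant member and the member with the largest log2 difference, described next.

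S100A14, an epithelial member that can pair with S100A16, was near the detection limit in EV cells and higher in PRSS35 cells. On hg19 its locus is chr1:153586732-153588808, minus strand. The FPKM was 0.284 (interval 0.0693 to 0.499) in EV and 1.83 (interval 1.28 to 2.38) in PRSS35 cells. The intervals did not overlap, and the ratio of the FPKM values was 6.44. The width of the intervals corresponds to about 7.0 fragments in EV and 44.3 in PRSS35, so the EV level rests on very few fragments. The log2 difference of 1.14 made S100A14 the 1 member of the 7 expressed ones that was higher by 2-fold or more, where 2.73% of all 11118 expressed genes were, and 0 members were lower by 2-fold or more, where 2.48% of expressed genes were. S100A14 passed the filter, with a mean FPKM of 1.06, through its level in PRSS35 cells, and it was listed for this difference, so the count is a description. With a pseudocount of 5 FPKM its log2 difference was 0.37, below 2-fold, and with 0.1 FPKM it was 2.33.

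Some loci in each table are named as assembled from the reads, and a gene can be assembled in 1 library and keep its annotated structure in the other. S100A14 kept its annotated structure in both. Among the 2365 expressed genes that did so and were above 0 in both libraries, 0.296% were higher by 2-fold or more, 7 genes including S100A14 and PRSS35, and 0.338% were lower. Among those of them with a mean FPKM of 1 to 5, 5 of 1164 were higher (0.430%) and 0.344% lower, while 15.0% had a higher and 3.95% a lower interval in PRSS35 cells without overlap. This subset was chosen after the data had been seen. The expressed genes whose pair of log2 levels lay nearest to that of S100A14 over the 2 libraries were SLC9A7, RPGRIP1L, ADGRG5, PTGER4P2-CDK2AP2P2 and CPT1C, at distances of 0.039 to 0.11 log2 units. All 5 were assembled from the reads in both libraries, unlike S100A14.

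On hg19, 17 family genes lie on chromosome 1 between 151955386 and 153606568, and 15 of them, S100A14 included, within 276.2 kb. The genes beside S100A14 had slightly lower values in PRSS35 cells, a direction that turned when FPKM was taken relative to its sum (values given with the level order). S100A16 lies 1217 bases from the S100A14 locus on its downstream side and S100A13 lies 2467 bases away on its upstream side, all on the minus strand. S100A16, a widely expressed member, had 111.4 FPKM (interval 105.6 to 117.2) in EV and 103.0 (interval 97.1 to 108.9) in PRSS35 cells. These intervals overlapped, and the log2 difference was -0.11. S100A13, which takes part in the release of FGF1, a growth factor without a signal peptide, had 100.9 FPKM (interval 93.4 to 108.4) in EV and 80.9 (interval 74.4 to 87.5) in PRSS35 cells. Its intervals did not overlap, with the lower value in PRSS35 cells and a log2 difference of -0.31. The loci of S100A16 and S100A13 were assembled from the reads in both libraries, unlike that of S100A14. In EV cells the S100A16 level was 392.3 times and the S100A13 level 355.2 times that of S100A14, and in PRSS35 cells 56.3 and 44.3 times. The library kit is not stated to keep strand, so reads of S100A13 cannot be told apart from those of S100A1, which lies on the opposite strand within the same locus and is listed at 0 in both libraries.

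Within 500 kb of S100A14, 42 other gene names are listed, of which 20 are at 0 in both libraries and 19 were expressed. Of the 19, 5 had a higher and 6 a lower interval in PRSS35 cells without overlap, where 25.1% and 15.5% of all expressed genes did. The 6 count INTS3 and SLC27A3, which are joined in the same locus, and NUP210L. The 5 include TPM3, whose EV value is that of a locus joined with NUP210L. These counts are therefore of names and not of separate loci. Names joined in a locus share its value. In this window 1 of the 19 differed by 2-fold, NUP210L, whose EV locus is joined with TPM3 while it is listed at 0 in PRSS35. Among the 13 expressed neighbours that are not joined and are above 0 in both, log2 differences ran from -0.35 for S100A3 to 0.88 for S100A9. On the upstream side CHTOP, an mRNA export factor, had 41.3 FPKM in EV and 51.8 in PRSS35, with a log2 difference of 0.32 and intervals that did not overlap. SNAPIN, a SNARE-associated protein, had 64.4 and 62.5 FPKM with overlapping intervals. On the downstream side the next loci, S100A2 and S100A3, were lower in PRSS35 cells by value, with overlapping intervals. S100A2 had 1.34 FPKM (interval 0.814 to 1.86) in EV and 0.511 (interval 0.157 to 0.865) in PRSS35, and S100A3 had 6.17 and 4.63. NPR1, a natriuretic peptide receptor on the upstream side, was low, with 0.0976 FPKM (interval 0.0410 to 0.154) in EV and 0.268 (interval 0.174 to 0.362) in PRSS35.

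**Figure D1:**
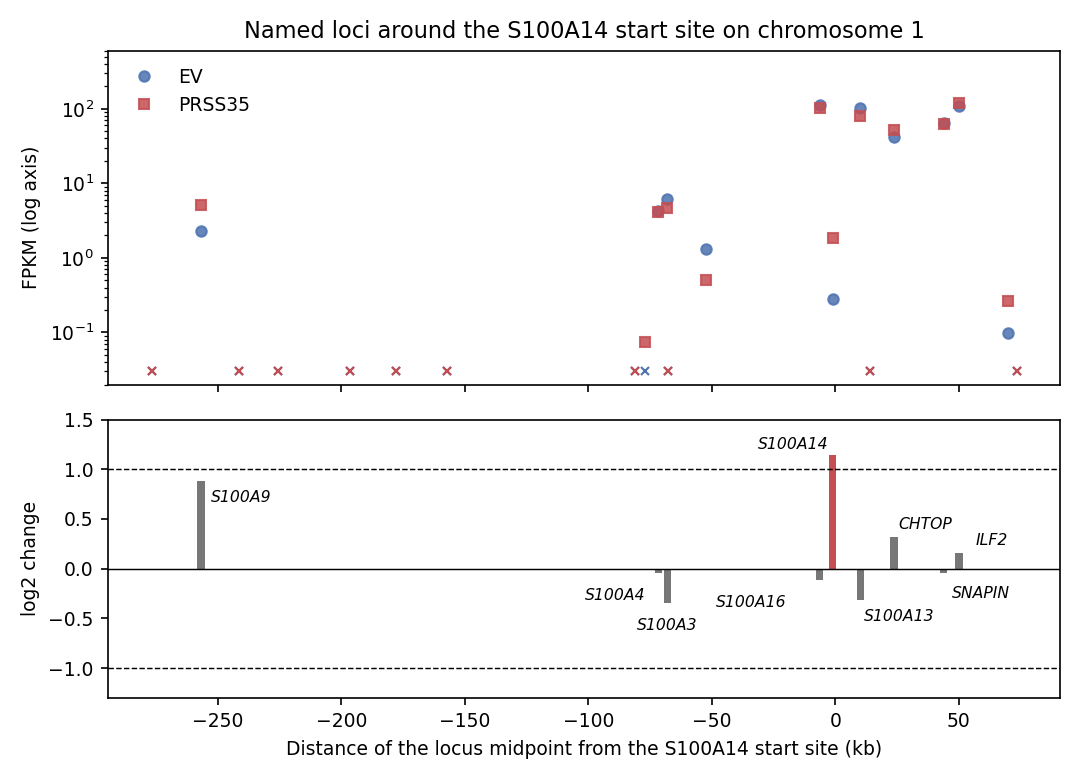
Named loci nearest to S100A14, from PGLYRP4 to MIR8083, by distance of their midpoint from the S100A14 start site in kb, negative values being the downstream side of S100A14. The upper panel gives FPKM in EV (circles) and PRSS35 (squares) on a log axis with crosses for loci listed at 0, and the lower panel the log2 difference of expressed genes with dashed lines at 2-fold. S100A14 (red bar, 1.14) stands between S100A16 (-0.11) and S100A13 (-0.31), which were both assembled from the reads.

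S100A10 was the most abundant member in both libraries. It is the light chain of the annexin A2 complex at membranes. Its FPKM was 289.7 (interval 275.9 to 303.5) in EV and 374.9 (interval 357.4 to 392.4) in PRSS35 cells, 47.9% and 55.4% of the summed FPKM of the 10 members. The value in PRSS35 cells was higher, by 1.29-fold and 0.37 on the log2 scale, with intervals that did not overlap. The locus, at chr1:151955386-151966714, was assembled from the reads in both libraries. Its partner ANXA2 had 368.5 FPKM (interval 353.7 to 383.2) in EV and 372.4 (interval 357.4 to 387.4) in PRSS35, with a log2 difference of 0.02. The ratio of S100A10 to ANXA2 was therefore 0.786 in EV and 1.01 in PRSS35 cells.

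S100P, a member first found in placenta that binds ezrin, lies outside the cluster, on the plus strand of chromosome 4 of hg19 from 6695566 to 6698897. It had 94.8 FPKM (interval 86.5 to 103.1) in EV and 107.3 (interval 98.3 to 116.2) in PRSS35 cells. The intervals overlapped, and the log2 difference was 0.18. The S100P locus was assembled from the reads in both libraries. S100A10, S100A16, S100A13 and S100P together held 98.8% of the summed FPKM of the members in EV and 98.4% in PRSS35. Ezrin (EZR) had 44.9 FPKM in EV and 56.2 in PRSS35, with intervals that did not overlap.

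S100A9 and S100A8 form calprotectin, the main calcium-binding protein of neutrophils. S100A9 had 2.33 FPKM (interval 1.33 to 3.32) in EV and 5.12 (interval 3.63 to 6.60) in PRSS35 cells, and the intervals did not overlap. The ratio of the values was 2.2, and the log2 difference of 0.88 stayed under 2-fold. The intervals correspond to about 22.0 fragments in EV and 47.5 in PRSS35. With a pseudocount of 0.1 FPKM the log2 difference was 1.10, past 2-fold. S100A8 is listed at 0 in both libraries, as is S100A12, the other neutrophil member. Of 9 listed neutrophil and monocyte markers, 6 are at 0 in both libraries, namely PTPRC, CSF3R, FCGR3B, MPO, ELANE and CXCR2. The summed FPKM of the list was 94.0 in EV and 103.9 in PRSS35, of which LYZ, which other cells also express, made up 94.0 and 103.7. CD14 was at 0 in EV and 0.234 in PRSS35. Of 5 keratinocyte markers, 4 are at 0 in both, and the summed FPKM of the list was 0.0314 and 0.0157.

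S100A4, which binds the heavy chain of non-muscle myosin, had 4.23 FPKM (interval 2.76 to 5.70) in EV and 4.08 (interval 2.61 to 5.56) in PRSS35 cells. Its log2 difference was -0.04 and the intervals overlapped. The locus was assembled from the reads in EV and kept its annotation in PRSS35. In GENCODE the S100A4 gene also spans S100A3, so the split of reads between them depends on the annotation. The myosin heavy chain MYH9 had 54.5 and 54.2 FPKM.

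S100A11 and S100A6 are abundant in many cell types but were at or near 0 here. S100A11 had 0.601 FPKM (interval 0.110 to 1.09), about 6.0 fragments, in EV and is listed at 0 in PRSS35. S100A6 is listed at 0 in both libraries. A value of 0 in these tables can be a failed estimate, since S100PBP, which codes for a widely expressed binding partner of S100P, is also listed at 0 in both. No fold is therefore given for these genes.

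In order of level, EV cells had S100A10, S100A16, S100A13, S100P, S100A4, S100A9, S100A11 and S100A14. The intervals of neighbours in this order overlapped between S100A16 and S100A13, S100A13 and S100P, S100A4 and S100A9, and S100A11 and S100A14, and these pairs cannot be ranked. In PRSS35 cells the order was S100A10, S100P, S100A16, S100A13, S100A9, S100A4 and S100A14, with overlap between S100P and S100A16 and between S100A9 and S100A4. Of the 7 expressed members, 3 had a higher interval in PRSS35 cells without overlap (S100A14, S100A9 and S100A10), where 25.1% of expressed genes did, and 1 had a lower interval (S100A13), where 15.5% did. The median log2 difference of the 7 was 0.18, beside 0.06 over all expressed genes. The members were chosen with these values known, so the counts and the median are descriptions. With each FPKM taken relative to the library's summed FPKM, the median of all expressed genes moved to 0.67. S100A13, S100A16 and S100A4 then turned from values below 0 to 0.39, 0.59 and 0.53, below that median. S100A14, S100A9, S100A10 and S100P were at 1.45, 1.42, 1.08 and 0.88, above it.

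**Figure D2:**
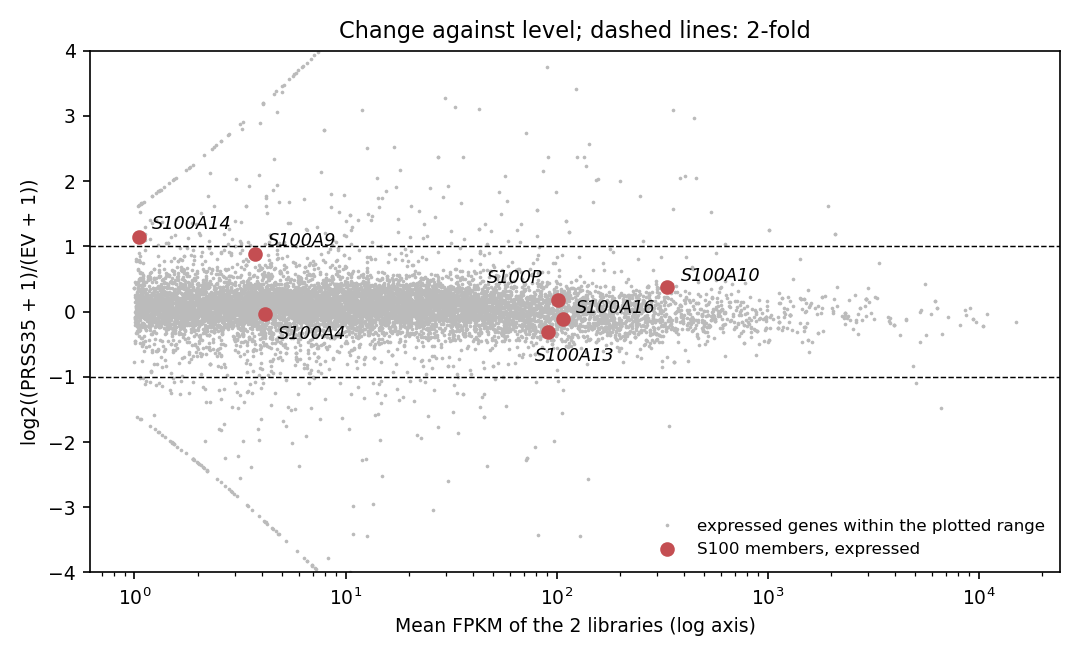
Log2 difference between PRSS35 and EV cells against the mean FPKM of both libraries (log axis) for expressed genes (grey) and the 7 expressed S100 members (red), with dashed lines at 2-fold. Genes beyond a log2 difference of 4 are outside the axis. S100A14 lies above the upper line at the left edge, S100A9 just under it, and the abundant members between -0.31 and 0.37.

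Of the other 11 S100 genes, 8 are listed at 0 in both libraries, among them S100A7, a keratinocyte member, and S100B, typical of glia. S100A3 was the 1 expressed gene among them, and S100A5 was at 0 in EV and 0.0737 FPKM (interval 0 to 0.221) in PRSS35. Of the 7 fused-type S100 genes, which include filaggrin (FLG) and trichohyalin (TCHH), 0 were expressed and 5 are at 0 in both libraries.

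Start sites of the members often carry a TATA-like sequence, a feature the choice of members did not use. The letters TATAA were searched on the coding strand in the 40 bases before each RefSeq start site on GRCh38.p14. All 10 members matched the table by symbol, with 15 start sites, and 7 of the 10 hold TATAA there at 1 or more starts, namely S100A14, S100A13, S100A6, S100A4, S100A8, S100A9 and S100P. Of all 27305 genes in the table, 5.47% do. In the whole 250 bases before a start and on either strand, where the reverse complement is TTATA, 18.9% of all 35116 start sites have a match. Shown are bases -40 to -11 before the start of 4 expressed members with a match, with TATAA in capitals.
S100A14, chr1:153616336-153616365, minus strand: cttcccccaggTATAAgagctgagctcagg
S100A9, chr1:153357814-153357843, plus strand: caggagctgccTATAAatgccgagcctgca
S100A4, chr1:153545817-153545846, minus strand: tggctggggTATAAataggtcagacctctg
S100P, chr4:6693838-6693867, plus strand: atgaggctgcctTATAAagcaccaagaggc
The match in S100A14 begins at base -29, as it does in S100A9. Of the members with a match, S100A13 and S100P are abundant, and S100A14, S100A9 and S100A4 are low. S100A6 and S100A8 are listed at 0, which can be a failed estimate. Of those without, S100A10 and S100A16 are abundant and S100A11 is at or near 0. A relation between the match and the level was not tested. The 250 bases before the start hold 4 CG pairs in S100A14, beside a median of 11 over all start sites.

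Of 21 listed partners and receptors of S100 proteins, 13 were expressed. In 7 of these the intervals overlapped. In 3 the interval was higher in PRSS35 cells (25.1% of all expressed genes) and in 3 it was lower (15.5%). The 3 lower ones were CACYBP, SUGT1 and AGER. AGER is counted there although its values cannot be compared, since its EV locus is joined with another gene, so nothing is read from the count of lower partners. ANXA5 (161.0 and 209.0 FPKM), ANXA11 (156.2 and 185.7 FPKM) and EZR were those with higher intervals. CACYBP, which binds S100A6 and takes part in ubiquitination, had 44.7 FPKM (interval 41.7 to 47.8) in EV and 22.5 (interval 21.1 to 23.9) in PRSS35, a log2 difference of -0.96. SUGT1, a cochaperone that S100A6 also binds, had 12.4 and 10.0 FPKM. CACYBP and SUGT1 were assembled from the reads in EV and kept their annotation in PRSS35, the reverse held for ANXA5, and the part of this in their values was not tested. Of the receptors, BSG, which S100A9 can bind, was abundant with 883.9 FPKM in EV and 831.6 in PRSS35, whereas TLR4 had 0.0122 FPKM in EV and is listed at 0 in PRSS35. AGER, which encodes RAGE, had 1.03 FPKM (interval 0.622 to 1.44) in PRSS35, and its EV value of 20.7 is that of a locus joined with PBX2, so these cannot be compared. FGF1, the cargo of S100A13, and plasminogen (PLG), which the S100A10 complex binds, were at or under 0.00984 FPKM. ANXA1, the partner of S100A11, had 0.555 and 0.530 FPKM.

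**Figure D3:**
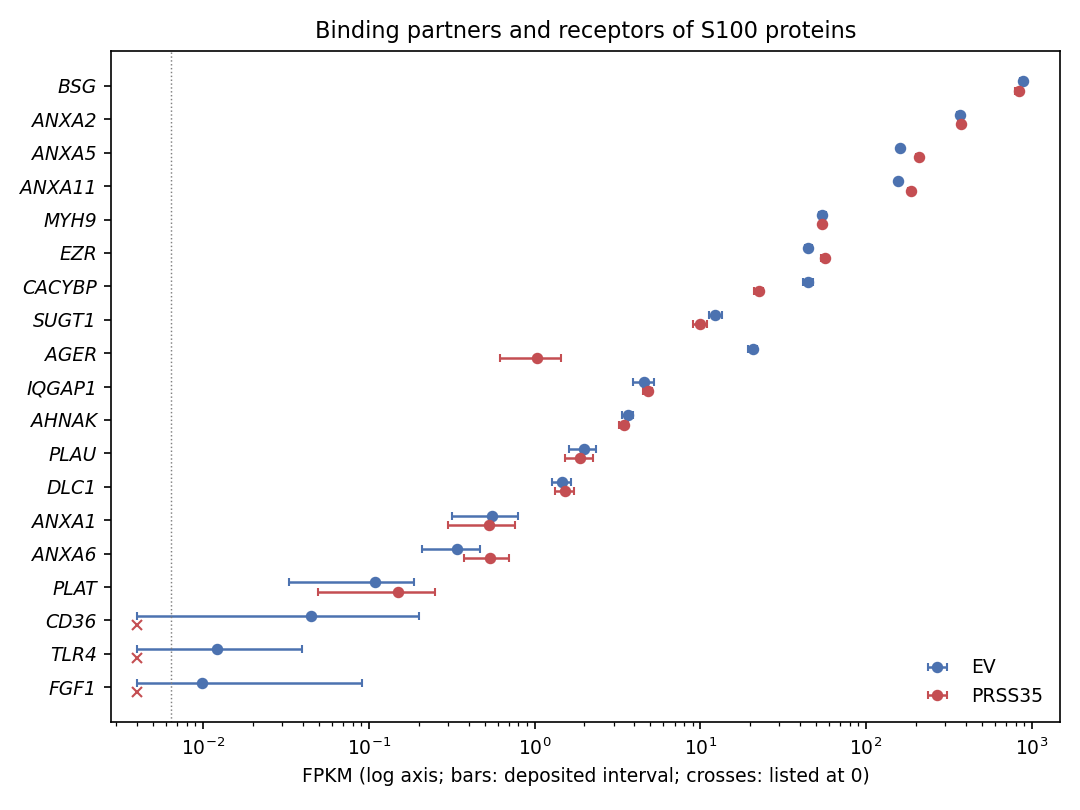
FPKM of the listed binding partners and receptors above 0 in at least 1 library, in EV (blue) and PRSS35 cells (red) on a log axis, with the deposited intervals (cut at the left where the lower bound is 0) and crosses for genes listed at 0. CACYBP (44.7 and 22.5) and AGER are the expressed partners furthest apart. The CACYBP locus was assembled from the reads in EV only, and the EV value of AGER belongs to a locus joined with PBX2.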

How the data were processed

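RNA from PLC cells with EV or PRSS35 was sequenced by the authors, with 1 library per condition. Reads were aligned to hg19 with TopHat2 2.1.0. The methods name Cufflinks for the next step and the submitters' processing notes Cuffdiff 2.2.1, with dm6 listed beside hg19. How FPKM was scaled between libraries, the annotation release and the options are not given in the sources used here. The deposited values are FPKM per locus with lower and upper bounds. Counts were not used, and no count model was fitted.

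FPKM was summed over loci holding a gene name, joined names included, on the primary chromosomes. Starts, which count from 0 in the tables, were raised by 1. A gene was called at 2-fold on log2(FPKM + 1). Implied fragments were computed from the interval as (2 × FPKM/(upper bound − FPKM)) squared. Reference sequences came from GENCODE v44lift37 on GRCh37 and RefSeq on GRCh38.p14, and loops were aligned with MAFFT 7.526. The members and lists were chosen with earlier results of these data known. Genes named are the 10 members, the other S100 and fused S100 genes, partners and receptors, marker lists, names within 500 kb of S100A14, its 5 nearest genes by level, and PRSS35. The fold and interval rules were run on simulated pairs of libraries with known changes. These held counting error only, without variation between cultures or loci assembled in 1 library. Alternatives were other pseudocounts, scalings, filters, thresholds and loci. Python 3.11.15, numpy 2.4.6, pandas 2.3.3 and matplotlib 3.10.9 were used.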

Additional observations from a re-analysis of the deposited data

How the results depend on the processing

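S100A14, which was listed for this difference, had log2 differences from 0.37 to 2.33 under the 7 alternatives run for it. The ends were pseudocounts of 5 and 0.1 FPKM, and a pseudocount cannot change the direction. Leaving out joined loci or taking the highest locus per name returned the same 1.14. The rescalings run were no check of the direction either. Division by the sum raises all values in PRSS35 cells against EV. The upper quartile and the median shift them little beside the FPKM ratio of 6.44. The log2 difference was 1.45 with FPKM divided by its sum, 1.11 by its upper quartile, and 1.08 when centred on the median. The number of members called higher was 1 as reported. It was 2, S100A14 and S100A9, with a pseudocount of 0.1 FPKM (3.40% of all expressed genes) or a 1.5-fold threshold (5.23%). With FPKM divided by its sum it was 3 (11.1% of all expressed genes). It was 0 with a pseudocount of 5 FPKM (1.73%), and at a mean FPKM of at least 5 (2.73%), which leaves S100A14 out. The number of members called lower was 0 throughout, where 1.18% (no filter on low values) to 4.27% (1.5-fold threshold) of all genes tested were lower. With the bounds scaled to a median change of 0, 2 members in place of 1 had a lower interval in PRSS35 cells. The share over all expressed genes was not computed for the scaled bounds, so this count has no background beside it. Over all expressed genes, 303 were higher and 276 lower. These numbers were 192 and 162 with a pseudocount of 5 FPKM, and 581 and 475 at 1.5-fold. With FPKM divided by its sum, 1238 were higher, and the share of higher among called genes rose from 52.3% to 87.1%. Without joined loci 183 were higher, and at a mean FPKM of at least 5, 169 were lower. Among genes that kept their annotation and were above 0 in both, 7 were higher and 8 lower, and 5 and 4 of these at a mean FPKM of 1 to 5, subsets chosen after the data were seen. No paired analysis was possible because the design holds a single EV and a single PRSS35 library. Depth limits the low members S100A14, S100A11, S100A4 and S100A9, and variation between cultures was not measured.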
